A study of Mus musculus with 6 samples.

Results

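The cytosolic ribosomal protein genes encode the proteins of the large (symbols Rpl and Rplp) and small (symbols Rps) subunits of the ribosome of the cytoplasm. They were chosen by symbol alone: every row of the count table named Rpl, Rps or Rplp and a number, with or without a, x or l, plus Rpsa, and without the suffix -ps that marks a named pseudogene. This gave 84 genes of 54429 rows, 52 of the large and 32 of the small subunit. All were found in the GENCODE M21 annotation of the mouse genome build mm10, 81 as protein coding, while Rpl32l, Rpl6l and Rps4l are annotated there as processed pseudogenes. The name rule leaves out some ribosomal proteins with other names, such as Fau, Rack1 and Rps3a1, which are described apart near the end.

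RNA came from bulk prefrontal cortex of mice that the labels give as C57BL6/J, aged 6 to 8 weeks, all injected with AAV9, an adeno-associated virus that delivers genes to brain cells. The 3 control libraries came from mice given AAV9 with green fluorescent protein (GFP), and the other 3 from mice given AAV9 with a short hairpin RNA (shRNA) against Kmt5b, a methyltransferase of lysine in histone H4. The comparison asked which transcripts change when Kmt5b is knocked down in this cortex. The design text gives a cross of C57BL/6 with C3H instead, and 2 GFP mice and 3 hairpin mice. Whether the 3 GFP libraries came from separate mice is thus uncertain, so the p-values given here cover no more than how these libraries vary. The promoter that drives the hairpin and the share of cells that took up virus are not given in the sources used here. In bulk tissue, fewer cells of a type and less RNA per cell cannot be told apart.

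Ribosomal proteins assemble with ribosomal RNA into the subunits that translate mRNA, and their own mRNAs are among the most abundant of any cell. These mRNAs begin with a terminal oligopyrimidine (TOP) tract, through which mTOR and Larp1 control their translation together. In neurons they are translated in the cell body and also found in axons and dendrites. Being short and abundant, they have been copied back into the genome many times by reverse transcription. The resulting processed pseudogenes lack introns and can match the spliced mRNA over its whole length. A read that lies within an exon can then match gene and copy equally well, while a read over an exon junction is continuous in the mRNA and in the copy but split in the gene's own genomic sequence.

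Sequences of 2 genes and of a copy of each are shown. The counts of Rpl41 were higher and those of its identical copy lower in the hairpin libraries. Rps15 changed less than Rpl41, and its copy, which has several differences, was also lower in those libraries. They are GENCODE M21 coding sequences, mm10, written from the start codon, 5′ to 3′. In each gene, capitals mark the 4 bases on either side of an exon junction, and in each copy, capitals mark bases that differ from the gene. Rpl41, the shortest ribosomal protein (chr10:128548114-128549305, minus strand), had a copy, Gm10736 (chr13:111593534-111593611, minus strand), with 0 differences in 78 bases.
Rpl41: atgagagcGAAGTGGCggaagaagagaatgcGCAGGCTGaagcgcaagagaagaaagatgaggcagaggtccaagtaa
Gm10736: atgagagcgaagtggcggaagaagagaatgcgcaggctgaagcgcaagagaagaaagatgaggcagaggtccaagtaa

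Rps15, a small subunit protein near the decoding site (chr10:80292453-80294114, plus strand), was set beside Rps15-ps2 (chr6:58017506-58017943, plus strand), which differed at 10 of 438 coding bases. The first 180 bases are shown, with 3 of those differences.
Rps15: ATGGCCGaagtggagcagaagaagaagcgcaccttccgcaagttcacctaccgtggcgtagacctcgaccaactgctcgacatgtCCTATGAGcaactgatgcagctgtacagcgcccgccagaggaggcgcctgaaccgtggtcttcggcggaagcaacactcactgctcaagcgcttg
Rps15-ps2: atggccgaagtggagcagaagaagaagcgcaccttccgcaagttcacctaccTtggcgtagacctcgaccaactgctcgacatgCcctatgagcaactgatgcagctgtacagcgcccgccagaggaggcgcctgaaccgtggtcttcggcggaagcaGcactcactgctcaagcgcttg

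Kmt5b, the targeted gene, was at 86.5, 79.7 and 80.9 CPM in the GFP libraries against 68.5, 80.3 and 63.9 CPM in the shRNA-labelled libraries. CPM is the count relative to the library total as scaled by edgeR, a log2 change is shRNA-labelled minus GFP with its standard error (SE), and a row is called where its edgeR quasi-likelihood p, adjusted over all tested rows by Benjamini-Hochberg, is under 0.05. The Kmt5b groups overlapped, and the log2 change was -0.22 (SE 0.10), with an adjusted p of 0.303 and a two-sided exact permutation p of 0.2, where 0.1 is the smallest that 3 against 3 libraries allow. Because Kmt5b was not called lower, the second group is named throughout by its label. Libraries held 29490771 to 74723284 counts. All listed markers of neurons, astrocytes, oligodendrocytes and their precursors, microglia and endothelium had counts. Summed neuronal markers lay at 5539 to 7012 CPM in GFP and 5720.2 to 6338 in the shRNA-labelled libraries. Summed oligodendrocyte markers lay at 2295 to 3496 and 1296 to 2674 CPM, lowest in shRNA-labelled replicate 1, and DESeq2 called 1 of the 5 lower. Of the 5 astrocyte markers, Aqp4 and Gja1 fell, with sums of 1199.8 to 1363 and 1176 to 1205 CPM. Of the 19 markers of the other cell types edgeR called 0, with 1 at an unadjusted p under 0.05 and 1 called by DESeq2. The part of cell composition in the results below was not tested.

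Most ribosomal protein genes had more counts in the libraries labelled Kmt5b shRNA. Of 82 tested members, 59 rose and 1 fell at an adjusted p under 0.05, where 2.77% of all 24419 tested rows rose and 5.69% fell. The median log2 change of the tested members was 1.41, against -0.02 over all tested rows. CPM of the groups did not overlap, with the shRNA-labelled libraries higher, for 64 members, and 9.84% of all rows did the same. Rises of called members ran from 0.41 to 6.35, and 31 members rose by over 2 on the log2 scale. Among called members the largest adjusted p was 0.0121, and among those not called the smallest was 0.0698. Every row with a near-identical copy elsewhere in the genome is uncertain, and for most genes described below, changes with the counts of copies added are given beside or after those of the own row.

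**Figure D1:**
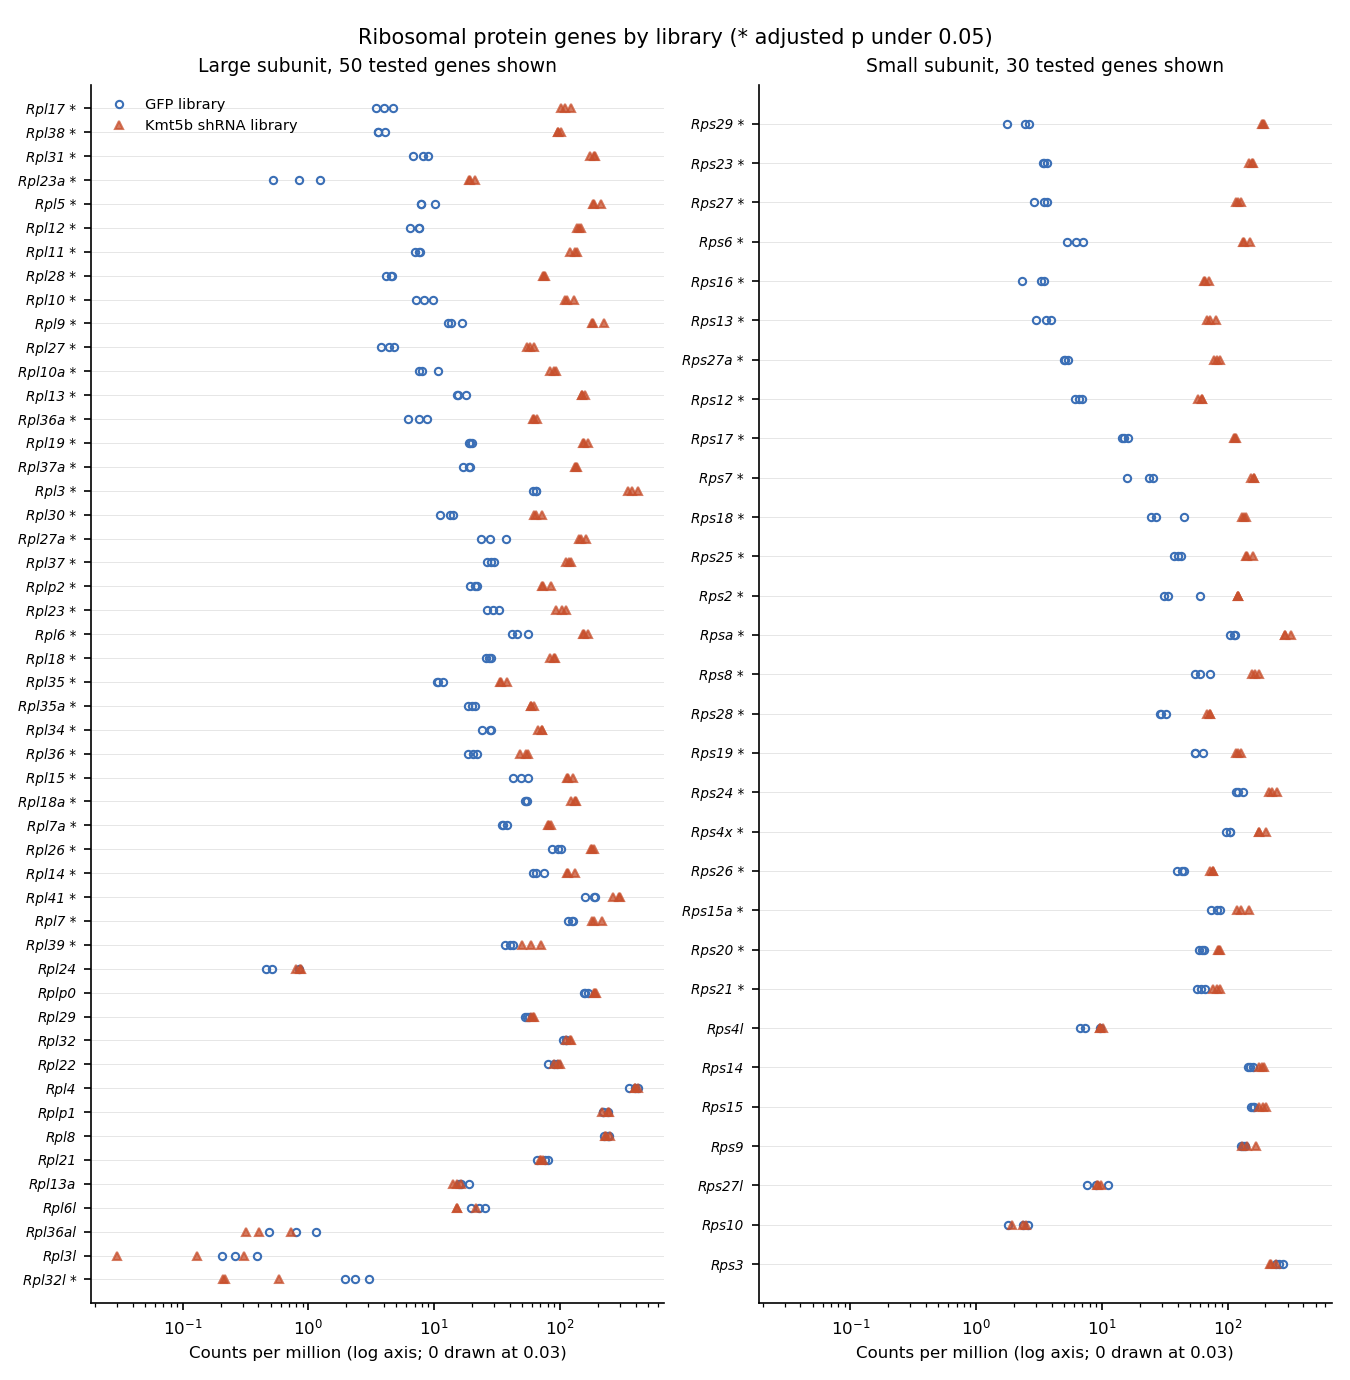
CPM on a log axis of tested ribosomal protein genes in each of the 6 libraries, large subunit left and small subunit right, ordered by log2 fold change, with an asterisk on called genes. Rps29, Rps23 and Rps27 lay below 4 CPM in every GFP library and above 100 CPM in every shRNA-labelled library, while Rpl8, Rpl4 and Rps3 overlapped.

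The members together took up 0.429%, 0.468% and 0.429% of all counts in the GFP libraries against 0.949%, 0.979% and 0.985% in the shRNA-labelled libraries. The share was thus 2.20-fold higher on average, with no overlap. The count table headers number the GFP libraries 13, 1 and 2 and the shRNA-labelled libraries 10 to 12, without saying what these numbers stand for. Whether the numbers mark batches is not known, and the part of any batch in the share was not tested. The 296 rows named as pseudogenes of a member took up 0.132 ± 0.00662% (SD, n = 3) against 0.0251 ± 0.00129%. A further 802 rows, found because their transcripts matched a member at 90% identity or more over at least 50% of their length, took up 0.217 ± 0.0143% against 0.0389 ± 0.00195%. Both kinds of copy were lower in every shRNA-labelled library than in any GFP library. Members and all copies together took up 0.763%, 0.841% and 0.769% against 1.01%, 1.04% and 1.05%. This sum was 1.31-fold higher, again with no overlap between the groups. Of these counts, 55.9 ± 0.293% lay in the members in GFP and 93.8 ± 0.117% in the shRNA-labelled libraries.

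**Figure D2:**
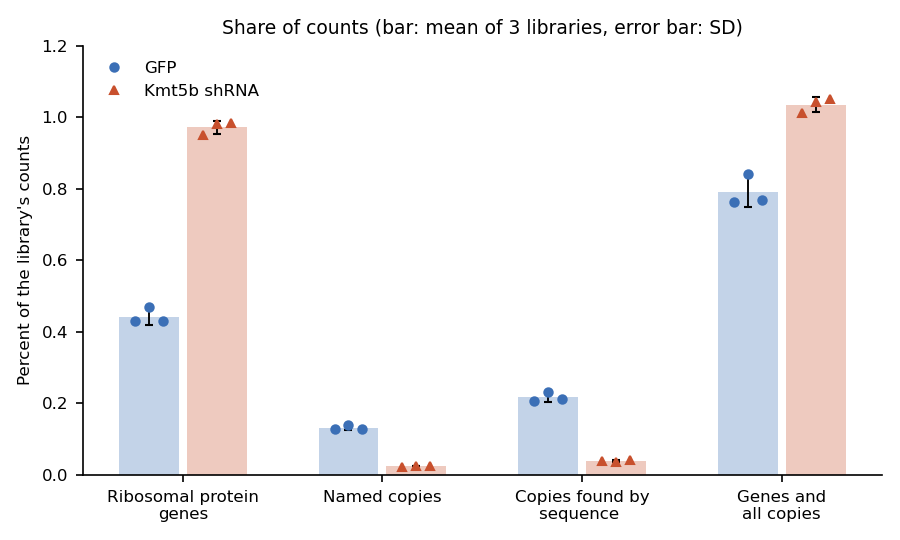
Percent of each library's counts in the 84 genes, the 296 named copies, the 802 copies found by sequence, and all of them together, with points for libraries, bars for means and error bars for SD (n = 3 per group). The genes had means of 0.442% in GFP and 0.971% in the shRNA-labelled libraries, both sets of copies were lower in the latter, and the sums had means of 0.791% and 1.04%.

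In their own rows, most genes of both subunits rose. Of the large subunit, 36 of 50 tested genes rose and 1 fell (Rpl32l), with a median log2 change of 1.64. Of the small subunit, 23 of 32 rose and the other 9 were not called, with a median of 1.16. The share called higher was therefore 72.0% and 71.9%. The ratio of large to small subunit counts was 1.35, 1.34 and 1.36 in the GFP libraries but 1.49, 1.48 and 1.47 in the shRNA-labelled libraries. With all copies added the ratio was 1.47 ± 0.00270 against 1.53 ± 0.0112 (SD, n = 3). The difference in this ratio was 0.132 without and 0.0660 with copies, and the groups did not overlap in either form. These ratios are of counts, not of molecules, since they are not corrected for length.

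Of 9 genes for proteins that line or ring the peptide exit tunnel, through which the nascent chain leaves the large subunit, 7 rose, and Rpl4 and Rpl22 were not called. Of all tested large subunit members 72.0% rose, and of all tested rows 2.77%. Rpl17, at the tunnel wall, was at 3.98, 4.72 and 3.44 CPM in the GFP libraries against 102, 122 and 109 CPM in the shRNA-labelled libraries. Rpl31, beside the exit, was at 8.19, 8.88 and 6.80 CPM in the GFP libraries against 186, 173 and 189 CPM in the shRNA-labelled libraries. Rpl23a, a docking site for the signal recognition particle, was at 1.24, 0.846 and 0.524 CPM in the GFP libraries against 19.0, 19.3 and 21.1 CPM in the shRNA-labelled libraries. In all 3 genes every shRNA-labelled library lay above every GFP library by a wide margin, with log2 changes of 4.80 (SE 0.14), 4.53 (SE 0.12) and 4.51 (SE 0.24). Adding all copies brought these to 1.38 (SE 0.10), 1.43 (SE 0.10) and 1.08 (SE 0.11). Rpl19, Rpl35, Rpl26 and Rpl39, which surround the exit, rose by 3.03, 1.68, 0.94 and 0.59, and were at 0.51, -0.25, 0.39 and 0.20 with all copies added. With all copies added 5 of the 9 rose, and the list's median went from 1.68 to 0.39. In this form 58.0% of all tested large subunit members rose. Rpl4, whose loop reaches into the tunnel, had among the highest CPM of the members and was at 396, 419 and 355 CPM in the GFP libraries against 396, 417 and 396 CPM in the shRNA-labelled libraries. Its groups overlapped, and its log2 change was 0.05 (SE 0.10).

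Rpl5 and Rpl11 join 5S ribosomal RNA in a particle that also binds Mdm2 and so links ribosome assembly to p53. Rpl5 was at 7.88, 10.1 and 7.78 CPM in the GFP libraries against 183, 211 and 185 CPM in the shRNA-labelled libraries, a log2 rise of 4.51 (SE 0.13). Rpl11 was at 7.61, 7.68 and 7.06 CPM in the GFP libraries against 119.8, 137 and 131 CPM in the shRNA-labelled libraries, a log2 rise of 4.12 (SE 0.11). Both were low in every GFP library. Their copies showed the reverse: Gm15500, a copy of Rpl5, was at 93.2, 105 and 88.1 against 12.9, 13.6 and 13.8 CPM, and Gm10288, a copy of Rpl11, at 66.2, 69.6 and 65.1 against 2.51, 3.57 and 2.19 CPM. After all copies were added, the log2 rises were 0.94 (SE 0.10) and 0.75 (SE 0.10), with edgeR adjusted p of 1.04e-05 and 5.04e-05.

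The P stalk, built on Rplp0 and Rpl12 and carrying the acidic proteins Rplp1 and Rplp2, recruits translation factors. Rplp1 was at 241, 218 and 219.5 CPM in the GFP libraries against 239, 245 and 216 CPM in the shRNA-labelled libraries, and Rplp0 at 155, 167 and 159 CPM in the GFP libraries against 191, 185 and 193 CPM in the shRNA-labelled libraries. Neither was called, although the Rplp0 groups did not overlap. With all copies added, Rplp0 was at -0.0084 (SE 0.09) and its groups overlapped. Rplp1 was then at -0.14 (SE 0.10), lower without overlap, and again neither was called. Rplp2 rose by 1.89 (SE 0.11), with means of 20.8 ± 1.47 CPM in GFP against 76.9 ± 7.25 CPM (SD, n = 3). Rpl12 was at 7.62, 7.52 and 6.39 CPM in the GFP libraries against 138, 146 and 143 CPM in the shRNA-labelled libraries. It rose by 4.31 (SE 0.11) in its own row and by 0.61 (SE 0.09) with all copies added. Near the peptidyl transferase centre, Rpl3 was at 64.4, 64.2 and 61.4 CPM in the GFP libraries against 375, 418 and 349 CPM in the shRNA-labelled libraries, a log2 rise of 2.59 (SE 0.11), which was 0.67 (SE 0.10) with all copies added. Rpl10, which completes the subunit late in its maturation, rose by 3.81 (SE 0.13). Rpl8, which also approaches that centre, was at 244, 243 and 223 CPM in the GFP libraries against 233, 251 and 229.6 CPM in the shRNA-labelled libraries, so its groups overlapped fully, with a log2 change of 0.01 (SE 0.10).

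Elsewhere on the large subunit, Rpl38, known for its part in the translation of Hox mRNAs, was at 4.10, 3.55 and 3.54 CPM in the GFP libraries against 96.6, 102 and 96.8 CPM in the shRNA-labelled libraries. Rpl41, shown above, was at 188, 158 and 189 CPM in the GFP libraries against 293, 266 and 301 CPM in the shRNA-labelled libraries. Both rose, by 4.72 (SE 0.11) and 0.69 (SE 0.11), and Rpl41 already had high CPM in GFP. Adding all copies brought the rises to 0.69 (SE 0.09) and 0.52 (SE 0.11). The other called large subunit genes rose by 0.66 (Rpl7) to 4.08 (Rpl28). Rpl32l, a pseudogene by annotation (chr10:20208490-20208888), was at 2.35, 1.95 and 3.03 against 0.211, 0.215 and 0.583 CPM and fell, as no other member did. Its log2 change was -2.85 (SE 0.39), with an edgeR adjusted p of 8.97e-05.

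In the small subunit, 3 of 6 genes for proteins at the mRNA entry and the decoding site rose. Of all tested small subunit members 71.9% rose, and of all tested rows 2.77%. Rps23, at the decoding site, was at 3.68, 3.48 and 3.40 CPM in the GFP libraries against 148, 159.8 and 156 CPM in the shRNA-labelled libraries, a log2 rise of 5.45 (SE 0.11). Rps2 and Rps18, at the mRNA entry and the head, rose by 1.53 (SE 0.26) and 2.06 (SE 0.22), or by 1.22 (SE 0.13) and 1.15 (SE 0.12) with all copies added. For both, GFP replicate 1 lay above the other GFP libraries, with Rps2 at 60.6, 33.6 and 31.1 against 121, 121 and 121 CPM and Rps18 at 45.3, 27.0 and 24.5 against 131, 136 and 139 CPM. Rps2 was not called without shRNA-labelled replicate 2 or without replicate 3 (edgeR adjusted p of 0.116 and 0.0965). Rps3, at the entry and with a second life in DNA repair, was at 258, 275 and 242 CPM in the GFP libraries against 215, 243 and 221 CPM in the shRNA-labelled libraries. Its groups overlapped and its log2 change was -0.19 (SE 0.10). Rps15 was at 160.3, 163 and 154 CPM in the GFP libraries against 200.3, 178 and 190.4 CPM in the shRNA-labelled libraries, a log2 change of 0.25 (SE 0.09) that missed the threshold (edgeR adjusted p = 0.146).

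On the mRNA exit side and platform, 5 of 7 listed genes rose, where 71.9% of all tested small subunit members did. Rps27, a zinc-finger protein there, was at 2.89, 3.68 and 3.49 CPM in the GFP libraries against 116, 122 and 128 CPM in the shRNA-labelled libraries, a log2 rise of 5.19 (SE 0.13) alone and of 1.16 (SE 0.09) with all copies added. Rps26, Rps28 and Rpsa rose by 0.81 (SE 0.10), 1.24 (SE 0.09) and 1.43 (SE 0.10). Rps3a1, the remaining listed gene that rose, is outside the name rule and is described near the end. Once all copies were added, Rps28 and Rpsa rose by 0.49 (SE 0.10) and 0.74 (SE 0.10). Rps26 was then not called, at 0.26 (SE 0.10) (edgeR adjusted p = 0.139). In this form 4 of the listed genes rose, where 46.9% of all tested small subunit members did. Rps3a1 is counted among these 4, although no copies were added to it. Rps14, at 0.30 (SE 0.09), was not called, but passed in DESeq2 and in edgeR with a filter of at least 1 CPM in 3 libraries. With all copies added it was at 0.01 (SE 0.09), with overlapping groups. Rps21, of the body of the subunit, rose by 0.41 (SE 0.10), but was not called without GFP replicate 3 or without shRNA-labelled replicate 1 (edgeR adjusted p of 0.0719 and 0.0684). Rps29, a small zinc-binding protein of the head, had the highest rise of all members: it was at 2.65, 1.76 and 2.47 CPM in the GFP libraries against 191, 195 and 189 CPM in the shRNA-labelled libraries, a log2 change of 6.35 (SE 0.14) with an edgeR adjusted p of 1.93e-13. Rps27a, made as a fusion with ubiquitin, rose by 3.99 (SE 0.11) alone and by 1.49 (SE 0.10) with all copies added. Rps6, the substrate of S6 kinase used as a readout of mTOR, rose by 4.50 (SE 0.13) alone and by 0.85 (SE 0.10) with all copies added.

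Diamond-Blackfan anaemia follows from a lowered dose of a ribosomal protein gene. Of 18 members listed for it, 17 rose, and Rps10 was not called. Of all 82 tested members 59 rose, and of all tested rows 2.77%. With all copies added 12 rose and 1 fell (Rps10), and the list's median log2 change went from 1.68 to 0.45. In this form 44 of all 82 tested members rose. Rps19, the gene found most often in that disease, rose by 1.08 (SE 0.10) in its own row and was at 0.31 (SE 0.10) with all copies added, past no threshold there (edgeR adjusted p = 0.0682).

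The listed paralogues of ribosomal protein genes ranged from no counts to over 40 CPM. Rpl10l, known from testis, had no count in any library, and Rpl39l had at most 4 counts in a library, so neither was tested. Rpl3l, of heart and skeletal muscle, was at 0.389, 0.260 and 0.205 against 0, 0.129 and 0.310 CPM. Rps27l was at 7.64, 11.2 and 9.01 against 9.82, 9.15 and 9.39 CPM and Rpl36al at 0.792, 1.14 and 0.486 against 0.316, 0.732 and 0.401 CPM. Rps4l was at 9.70, 7.39 and 6.65 against 9.59, 10.2 and 9.73 CPM. These 4 were not called by edgeR, and their groups overlapped. Outside the name rule, Rpl22l1 was at 10.1, 10.8 and 9.15 against 19.0, 24.9 and 15.7 CPM and rose, with a log2 change of 0.99 (SE 0.16), while Rpl22 itself was not called, at 90.04, 95.001 and 80.5 against 89.0, 100.2 and 96.2 CPM. Rpl7l1 was not called, at 52.7, 46.2 and 40.4 against 45.5, 46.2 and 44.7 CPM. Rps27rt, a retrogene of Rps27, fell, and its values stand below with the other copies.

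Many named copies fell where their genes rose. Of 296 rows with the suffix -ps, belonging to 60 members, 64 had no count and 133 passed the filter on low counts. A copy that passed through its GFP counts alone, or through its shRNA-labelled counts alone, had to differ in that direction. These tested rows are thus not a sample of all copies, for falls or for rises. Of them, 67 fell and 6 rose (against 5.69% and 2.77% of all rows), and the copies that fell belonged to 39 members. The copies with the highest CPM in GFP were Rpl3-ps1, Rpl14-ps1, Rpl19-ps11, Rps6-ps4, Rpl10a-ps1 and Rpl31-ps8. Rpl3-ps1 was at 177, 165 and 154 CPM in the GFP libraries against 8.07, 12.1 and 7.16 CPM in the shRNA-labelled libraries, a log2 change of -4.19 (SE 0.18). Rpl14-ps1 was at 109, 109 and 92.9 against 44.1, 54.7 and 46.4 CPM and fell by 1.10 on the log2 scale. Rpl19-ps11 was at 90.6, 91.5 and 82.9 against 0.843, 0.710 and 0.857 CPM. All 3 were lower in every shRNA-labelled library than in any GFP library. Rps6-ps4 was at 75.3, 71.4 and 66.1 against 3.71, 4.15 and 3.75 CPM, Rpl10a-ps1 at 57.7, 64.7 and 61.6 against 3.16, 2.90 and 2.57 CPM and Rpl31-ps8 at 57.7, 62.2 and 51.3 against 5.96, 5.16 and 5.52 CPM. Their log2 changes were -4.20 (SE 0.12), -4.41 (SE 0.12) and -3.36 (SE 0.12), with no overlap.

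The called falls of largest fitted size were those of Rpl34-ps2, Rps24-ps2 and Rpl32-ps, which had no count in the shRNA-labelled libraries and at most 0.524 CPM in a GFP library. Next came Rps25-ps1, at 46.6, 54.5 and 45.6 against 0.492, 0.387 and 0.437 CPM, and Rpl19-ps11. The 6 copies that rose were Rpl21-ps15, Rpl35a-ps3, Rpl7a-ps11, Rps2-ps13, Rpl21-ps8 and Rpl7a-ps5. Rpl21-ps15 was at 0.120, 0.0976 and 0.153 CPM in the GFP libraries against 10.7, 15.8 and 12.03 CPM in the shRNA-labelled libraries, and Rpl21-ps8 also rose, by 1.98 (SE 0.23). Rpl35a-ps3 and Rpl7a-ps11 stayed under 1 CPM in all libraries, at 0.0299, 0 and 0 against 0.264, 0.215 and 0.365 CPM and 0.0149, 0.0325 and 0.0511 against 0.808, 0.602 and 0.365 CPM. Rpl21, the parent of Rpl21-ps15 and Rpl21-ps8, was itself not called, at 75.6, 79.7 and 65.9 against 73.9, 71.0 and 70.0 CPM.

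When the counts of named copies were added to their members and the copy rows dropped, 55 of 82 members rose and 3 fell, where 2.72% and 5.44% of all 24286 rows did. The median log2 change of the members was 0.74. Rps16 went from 4.44 (SE 0.14) to 0.37 (SE 0.10), Rps6 from 4.50 (SE 0.13) to 0.89 (SE 0.10) and Rpl14 from 0.85 (SE 0.11) to -0.02 (SE 0.11). Rps29, Rps23, Rps27, Rpl12, Rpl5 and Rpl11 had the highest rises in this form, of 6.35, 5.45, 5.07, 4.29, 4.26 and 4.12. Rpl32l fell as before, and Rps10 and Rpl13a fell once their copies were added. Rps10 with its copies was at 55.4, 50.7 and 48.6 CPM in the GFP libraries against 22.4, 20.99 and 21.5 CPM in the shRNA-labelled libraries, a log2 change of -1.25 (SE 0.10). Rpl13a with its copy was at 19.4, 22.4 and 19.0 against 16.4, 14.2 and 15.2 CPM, a log2 change of -0.41 (SE 0.12), which missed the threshold whenever any of the 6 libraries was left out and in the limma-voom fit (adjusted p from 0.0511 to 0.178). Some rises of under 0.5 in this form also rested on certain libraries. Rps19 was not called without GFP replicates 1 or 3 or shRNA-labelled replicates 1, 2 or 3 (edgeR adjusted p 0.0770 to 0.199). Rps16 missed the threshold without GFP replicates 2 or 3 or shRNA-labelled replicate 1 (edgeR adjusted p 0.0818 to 0.148). Rpl10a lost its call without GFP replicates 1 or 3 or shRNA-labelled replicates 1 or 3 (edgeR adjusted p 0.0566 to 0.111). Rps21 was not called without GFP replicate 3 or shRNA-labelled replicates 1 or 2 (edgeR adjusted p 0.0512 to 0.0757).

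Rps29, Rpl5, Rpl11 and Rpl12 were little altered by adding named copies, and their copies with most counts carry gene-model names without the -ps suffix. The 802 copies found by sequence belonged to 77 members, and 769 of them had no intron. Of 325 tested, 122 fell and 10 rose, against 5.69% and 2.77% of all rows. Here too, a copy that passed the filter through the counts of a single group, GFP or shRNA-labelled, had to differ. Gm14303, a copy of Rps29, was at 178, 172 and 157 CPM in the GFP libraries against 2.20, 2.35 and 2.92 CPM in the shRNA-labelled libraries. It was high in all GFP libraries, where Rps29 was low, and low in all others, where Rps29 was high. Gm9794 (Rpl23) was at 123, 124 and 105 against 51.7, 57.9 and 55.9 CPM, Gm10275 (Rpl12) at 102, 92.1 and 90.4 against 15.9, 17.97 and 16.6 CPM and Gm11478 (Rpl13a) at 70.5, 79.6 and 68.7 against 3.02, 2.09 and 3.59 CPM. Rpl37rt and Rps27rt, retrogenes of Rpl37 and Rps27, were at 89.996, 85.8 and 78.1 against 11.9, 12.95 and 12.7 CPM and at 50.4, 53.5 and 48.4 against 2.78, 2.67 and 2.90 CPM. Rps29 with all its copies was at 184, 178 and 163 CPM in the GFP libraries against 193, 197 and 192 CPM in the shRNA-labelled libraries, a log2 change of 0.15 (SE 0.09) that was not called (edgeR adjusted p = 0.499). For Rps15, which was not called, the sum with all copies was at 192, 193 and 187 against 200.5, 178 and 191 CPM, a log2 change of -0.0049 (SE 0.09). Its copy Rps15-ps2, shown above, was at 29.9, 27.4 and 30.4 against 0.281, 0.301 and 0.492 CPM. Gm10736, the copy of Rpl41, was at 23.3, 17.2 and 20.8 against 1.30, 1.12 and 1.46 CPM.

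**Figure D3:**
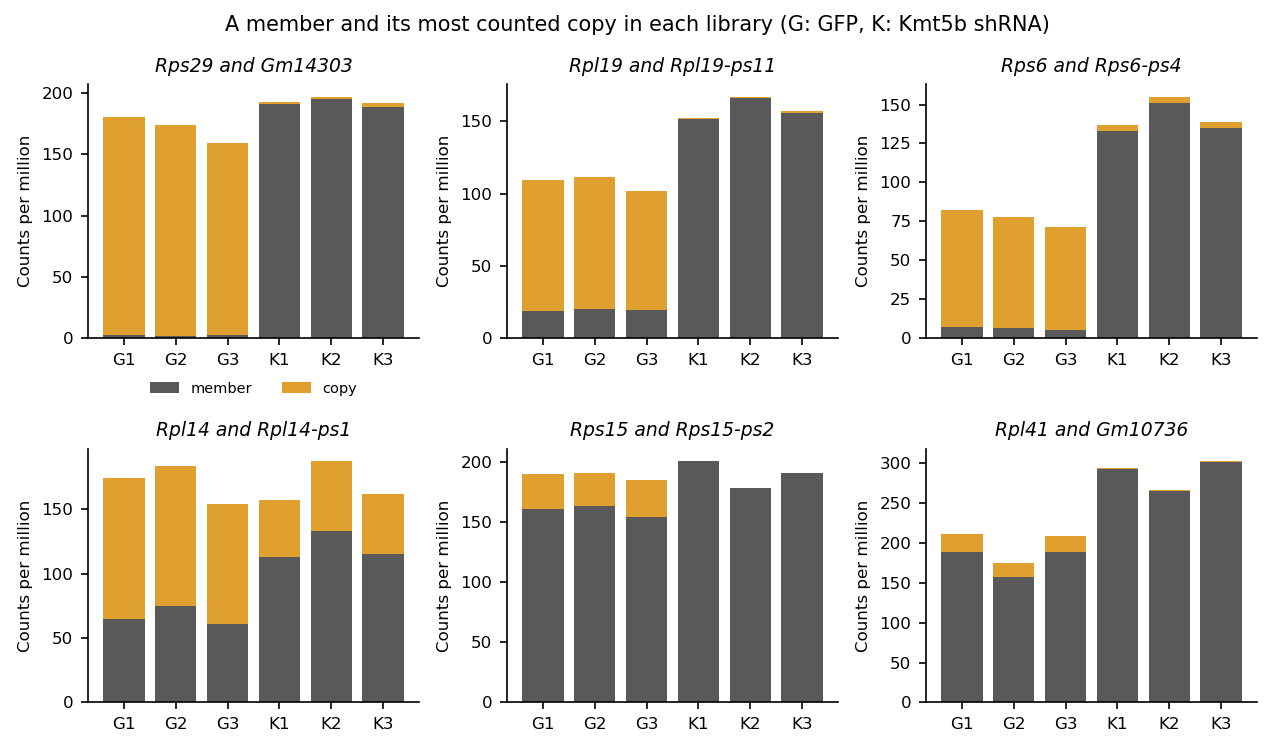
Stacked CPM of a member (dark) and the copy of it with the most counts (light) in each of the 6 libraries, G for GFP and K for the libraries labelled Kmt5b shRNA. The copy took up nearly all CPM of the Rps29 pair in the GFP libraries and almost none in the others. The Rpl14 copy was also lower in the shRNA-labelled libraries, but still at 44.1 to 54.7 CPM there.

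With all copies added, 44 of 82 members still rose and 4 fell, against 2.56% and 4.96% of all 23961 rows. The median log2 change of the members was 0.37, with 0.51 for the large and 0.33 for the small subunit. Of the large subunit 29 of 50 rose (58.0%), and of the small subunit 15 of 32 (46.9%). All 44 were among the 59 that rose in their own rows, and the other 15 of those were not called. Among the 44, 5 smaller rises rested on certain libraries. Rpl10a was not called without GFP replicates 1 or 3 or shRNA-labelled replicates 1 or 3 (edgeR adjusted p 0.0825 to 0.157). Rpl18 missed the threshold without GFP replicates 2 or 3 or shRNA-labelled replicates 1, 2 or 3 (edgeR adjusted p 0.0514 to 0.0983). Rpl26 lost its call without GFP replicate 3 or shRNA-labelled replicates 1 or 2 (edgeR adjusted p 0.0628 to 0.127). Rps16 was not called without GFP replicates 2 or 3 or shRNA-labelled replicates 1, 2 or 3 (edgeR adjusted p 0.0617 to 0.201). Rps25 missed the threshold without GFP replicate 3 or shRNA-labelled replicates 1 or 2 (edgeR adjusted p 0.0626 to 0.120). Over the 59 the median went from 2.07 to 0.66. A change within 0.3 of 0 was left in 28 of the 82. Rises of over 2 were left in 5: Rps23, Rpl27, Rpl10, Rps12 and Rpl13. Rps23 with its 13 copies was at 5.97, 6.13 and 5.75 CPM in the GFP libraries against 150.1, 163 and 158 CPM in the shRNA-labelled libraries, a log2 change of 4.73 (SE 0.11). Rpl27 was at 6.94, 8.08 and 7.21 against 57.1, 63.6 and 59.6 CPM, Rpl10 at 14.5, 18.7 and 12.9 against 112, 131 and 116 CPM, Rps12 at 9.83, 10.5 and 10.01 against 61.0, 64.4 and 65.6 CPM and Rpl13 at 41.6, 39.6 and 34.7 against 157, 164 and 155 CPM. In none of these 5 did the groups overlap. Of the CPM of member and copies, 59.3% lay in the member in GFP for Rps23, 58.1% for Rpl27, 54.9% for Rpl10, 64.6% for Rps12 and 41.8% for Rpl13. Copies outside the annotation were not searched.

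**Figure D4:**
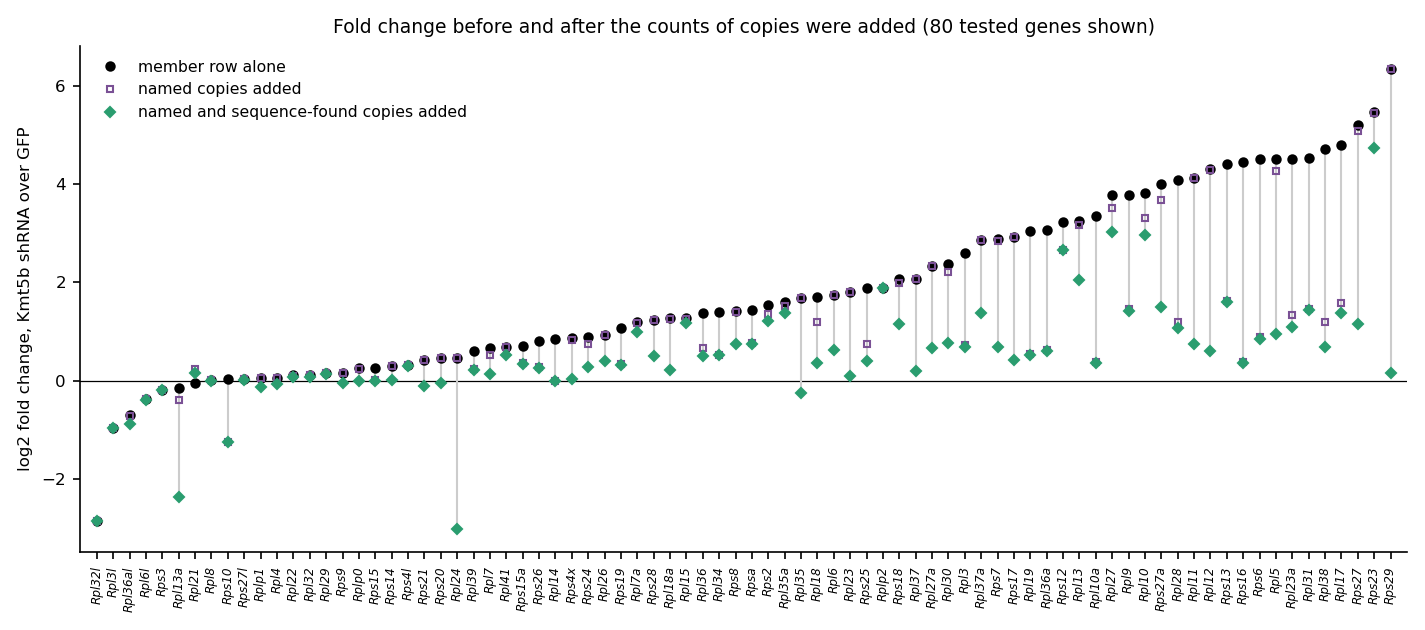
Log2 fold change, libraries labelled Kmt5b shRNA over GFP, of tested members alone (circles), with named copies added (squares) and with all copies added (diamonds). Rps29 moved from 6.35 to 0.15, Rps23 only from 5.45 to 4.73, and Rpl24 and Rps10 moved below 0. Rpl13a, already at -0.15 alone, moved to -2.36.

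The 4 that fell with all copies added were Rpl24, Rpl32l, Rpl13a and Rps10. Rpl24, Rpl13a and Rps10, together with Rpl36al, are the 4 members that share over 50% of their transcript bases with another gene on the same strand. Rpl24 shared 71.5% with Gm28037, Rpl36al 63.1% with Gm49383, Rpl13a 59.3% with Gm45713 and Rps10 53.6% with RPS10-NUDT3. No other member shared more than 10.7%. These 4 members had at most 18.9 CPM in any library, and the 4 genes they overlap had no count in any. Whether counting used strand is not given in the sources used here. Rpl24, a late-joining large subunit protein, was at 0.837, 0.455 and 0.511 CPM in the GFP libraries against 0.861, 0.796 and 0.875 CPM in the shRNA-labelled libraries. Its copies alone brought the sum to 50.3, 61.2 and 45.6 against 6.42, 6.47 and 6.48 CPM, a log2 change of -3.02 (SE 0.13). Rpl13a, a target of phosphorylation in the interferon response, was at 16.3, 18.9 and 15.7 against 16.4, 14.2 and 15.1 CPM alone and at 91.6, 105 and 89.3 against 19.5, 16.7 and 19.2 CPM with all copies. For members whose own row stayed low in both groups, the sum thus followed the copies.

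Across the 78 members that had copies and counts in all libraries, the median percent of CPM lying in the member itself, out of member and copies, was 52.5% in GFP and 96.0% in the shRNA-labelled libraries. It was higher in the latter for 77 of 78, with Rpl21 as the exception. Copies together exceeded the member for 37 members in GFP and for 3 in the other group (Rpl23a, Rpl24 and Rps10).

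The change of a member's row went with how closely its best copy matched it. The classes were set after the values were seen, leave out the 4 members that share exons and the 3 annotated as pseudogenes, and serve as description. In 18 members every coding base was matched by a copy: all 18 rose, by 0.69 to 6.35, with a median of 3.95. In 42 members the best copy matched 98% to under 100% of the coding bases: 38 rose, with a median of 1.64. In 13 members it matched less than 98%: 3 rose (Rplp2, Rps20 and Rps21), with a median of 0.11. Rpl3l had no copy and was not called. In GFP the median percent of CPM lying in the member was 12.2%, 47.5% and 92.3% in the 3 classes, and in the shRNA-labelled libraries 95.9%, 95.3% and 99.8%. Once all copies were added, the median log2 changes were 0.89, 0.51 and -0.0049.

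**Figure D5:**
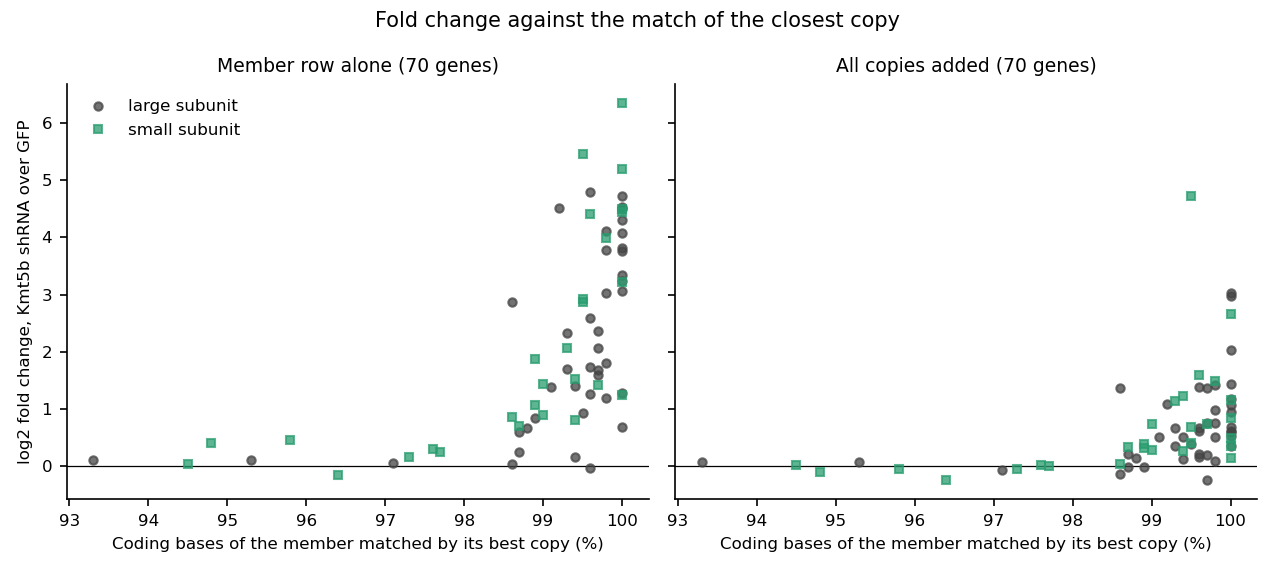
Log2 fold change of 70 tested members against the percent of their coding bases matched by their closest copy, for the member row alone (left) and with all copies added (right), large subunit as circles and small subunit as squares; 3 members matched below 50% (Rpl8, Rplp2, Rps3) lie off the axis. Among the plotted genes, changes above 1 lie at matches above 98%, and most are smaller on the right, where Rps23 stands alone at 4.73.

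Members whose best copy matched less than 98% of the coding bases share the least sequence with copies. Rpl8 and Rps3 (best coding match 14.5% and 16.0%) changed by 0.01 (SE 0.10) and -0.19 (SE 0.10). Rpl4 (best match 97.1%), Rpl22, Rpl32 and Rps9 changed by 0.05, 0.10, 0.11 and 0.16, and these 6 were not called by edgeR. Rps14 and Rps15, described above, are in the same class and changed by more than these. Both were higher in every shRNA-labelled library than in any GFP library. Neither was called by edgeR, but Rps14 passed in DESeq2. With all copies added, Rps14 was at 0.01 (SE 0.09) and the groups of both genes overlapped. Rplp2, Rps20 and Rps21 are in the same class and rose. Their best matches were 49.7%, 95.8% and 94.8%, and their rises 1.89 (SE 0.11), 0.46 (SE 0.09) and 0.41 (SE 0.10). After the addition of all copies, Rplp2 was at 1.88 (SE 0.11), Rps20 at -0.04 (SE 0.09) and Rps21 at -0.11 (SE 0.09). Rplp2 shares a stretch of 447 bases at 99.3% identity with Wdr89, a WD-repeat gene that was not counted as a copy because the match covers 15.0% of its transcript, and which was picked out after its values were seen. Wdr89 was at 61.7, 61.0 and 54.4 CPM in the GFP libraries against 12.6, 13.3 and 13.6 CPM in the shRNA-labelled libraries, a log2 change of -2.16 (SE 0.10). Rplp2 and Wdr89 together were at 79.8 ± 5.47 CPM in GFP and 90.04 ± 7.46 CPM in the shRNA-labelled libraries (SD, n = 3). Whether Wdr89 bears on the Rplp2 count was not tested. Rpl29, which has 61 copies, was not called, at 54.6, 56.9 and 52.3 against 60.5, 62.2 and 59.0 CPM, and 78.8% and 79.7% of its CPM lay in the member in the 2 groups. How reads that match a gene and a copy equally were placed is not given in the sources used here, nor whether this was alike in all libraries, and its part in the changes was not tested.

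Some ribosomal protein genes outside the name rule also rose. Copies were searched for members only, so none were added to these genes, nor to Rpl22l1 and Rpl7l1. Fau, fused to a ubiquitin-like protein, was at 5.13, 6.18 and 3.99 against 113, 107 and 112 CPM, a log2 rise of 4.46 (SE 0.15). Rps3a1 was at 89.9, 93.6 and 79.3 against 205, 247 and 211 CPM and rose, by 1.34 (SE 0.11). Rps3a2, at 24.5, 26.2 and 22.0 against 0.633, 0.538 and 0.547 CPM, and Rps3a3, at 8.63, 7.78 and 7.08 against 1.27, 2.39 and 2.21 CPM, fell. Rack1, a scaffold on the small subunit head, was not called, with a log2 change of -0.10 (SE 0.09).

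Other genes that serve ribosome supply had medians nearer 0. Over all tested rows, 2.77% rose and 5.69% fell at the same threshold. Of 40 assembly factor genes 4 rose and the others were not called, with a median log2 change of 0.02. Fbl, the methyltransferase of box C/D particles, rose by 1.71 (SE 0.14) and Nsa2 by 0.81 (SE 0.11). edgeR called 0 of 12 RNA polymerase I genes (0 at an unadjusted p under 0.05, 0 by DESeq2) and 0 of 10 ribosome quality control genes (1 and 0). Of 16 further TOP mRNA genes 6 rose and the others were not called, with a median of 0.27. Tpt1, translationally controlled tumour protein, rose by 3.71 (SE 0.12) and Naca, of the nascent chain complex, by 1.57 (SE 0.10). The elongation factors Eef1a1 and Eef2 were not called, at 0.28 (SE 0.10) and -0.02 (SE 0.10). Of 15 genes of mTOR signalling and TOP control, Eif4ebp1 and Larp1 rose, by 0.91 (SE 0.18) and 0.40 (SE 0.10), and the others were not called. Copies of these genes were not searched for.

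RefSeq promoters (GRCm38.p6, 250 bases before to 50 after the start) were matched to 61 members. The letters CTTTC, as at the start of a TOP tract, lay on the sense strand within 30 bases of the start in 20 of them (32.8%), against 7.78% of all 27025 promoters. CCGGAAG, the core of ETS factor sites, was found on either strand in 24 (39.3%), against 9.12% of all. A match of letters is a description and not a site.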

How the data were processed

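Bulk prefrontal cortex RNA was sequenced from 3 GFP-AAV9 and 3 Kmt5b shRNA-AAV9 libraries, grouped by their titles. Per the labels' protocols, libraries were made with a stranded total RNA kit after removal of ribosomal RNA, Cutadapt removed adapters and TopHat2 placed the reads on RefSeq mRNAs. The build mm10, featureCounts, STAR and DESeq2 stand in the submitters' processing notes, so the aligner is uncertain. Per the file headers, the authors deposited the read count of each gene symbol, as whole numbers with no scaling. Strand setting, annotation and the treatment of reads with several matches are not given in the sources used here. Totals of 29490771 to 74723284 counts limit precision, and the errors given cover these libraries only.

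The whole table of 54429 rows, of which 53825 matched a GENCODE M21 symbol and 2 symbols occurred more than once, was fitted with edgeR 4.0.16 in R 4.3.3 (filterByExpr, TMM scaling, robust quasi-likelihood test, Benjamini-Hochberg adjustment over all tested rows, threshold 0.05). The script was tested on simulated data. Named copies are rows that carry a member's symbol and -ps. Copies by sequence are other genes with a transcript matched by a member at 90% identity over 50% of its length (BLAST+ 2.17.0, e-value limit 1e-10). Their counts were added to the member of best match and the fit repeated. Copies missing from that annotation and genes matched over less of their length were left out.

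Values in every library are given for the 8 called members of largest rise, all that fell, the 6 of highest mean CPM, the 6 of highest mean CPM not called, paralogues with counts, and the 6 largest in each direction with named copies added. For copies they are given for the 6 of highest CPM in GFP, the 5 largest falls and the 3 largest rises. For Rpl34-ps2, Rps24-ps2 and Rpl32-ps among these falls, only an upper bound in GFP and the absence of shRNA-labelled counts are given. From the other pathway lists up to 2 genes per direction were named. Members named beyond this, the classes of coding match, Wdr89 and the copies without -ps were chosen after their values were seen. The members and lists were chosen with earlier results of these data known. Alternatives were RLE scaling, library totals, TMM without these genes, other filters, DESeq2 1.42.0, limma-voom (limma 3.58.1), a replicate block and leaving out each library. A few results that these files could give are not reported here.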

Additional observations from a re-analysis of the deposited data

How the results depend on the processing

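The 59 rises of ribosomal protein genes ranged from 58 to 60 over 14 alternatives of scaling, filter, test, block and left-out library, and 58 of the 60 calls passed in all 14. The number of falls was 1, with a range of 1 to 2 when each library was left out (2 without shRNA-labelled replicate 2) and 2 without a filter on low counts, where Rpl6l was added. With all copies added, 44 rises and 4 falls were left, and the median log2 change went from 1.41 to 0.37. Leaving out libraries gave medians of 1.33 (without GFP replicate 3) to 1.44. The share of counts in members differed by 0.529 percentage points of the library total, and by 20.4 percentage points when taken of members and named copies, by construction of the denominator. Falls of named copies numbered 49 to 72 over the alternatives, against 67, and rises 4 to 9, against 6.

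Same-numbered deviations from the group means correlated at -0.04, -0.05 and 0.31, and unlike-numbered ones at -0.30 to 0.33. Deviations within a group of 3 sum to 0, so these values cannot show whether replicate numbers pair the libraries. With a replicate block, 59 members rose and 1 fell, as without it. With named copies added the block left Rpl13a and Rps19 not called, and with all copies added Rpl10a.

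Counts cannot show how reads shared by a gene and its copies were placed, and Kmt5b was not called lower in any alternative. A member that was not called is not thereby shown to be at the same level in both groups. GFP replicate 2 had the fewest counts.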
